A study of Mus musculus with 35 samples.

Results

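The 10 genes described here encode the transcription factors that build the cardiac gene program: Gata4, Gata6, Nkx2-5, Tbx5, Tbx20, Mef2a, Mef2c, Mef2d, Hand2 and Srf. They were taken by symbol, as a fixed list and not by any measured value, from a table of normalized RNA-seq counts that holds 27012 genes, and all 10 were among the 13695 genes with a mean value of at least 10 that were tested. Their levels were compared in the apex of the mouse heart after transverse aortic constriction (TAC), in which a band around the aortic arch puts the left ventricle under pressure load, and after sham surgery.

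GATA factors, NKX2-5 and the T-box factors TBX5 and TBX20 bind side by side at cardiac enhancers and switch on genes of the contractile apparatus and the natriuretic peptides. MEF2 factors drive muscle and metabolic genes and are held in check by class II histone deacetylases, HAND2 is a basic helix-loop-helix factor needed for growth of the ventricle, and SRF couples actin dynamics and growth signals to cytoskeletal and immediate early genes through the CArG box. In the adult ventricle the same factors are known to take part in the hypertrophic response to pressure load.

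The 35 libraries fell into 6 groups. TAC hearts came from IRS1KO mice (6 libraries), IRS2KO mice (6 libraries) and WT mice (5 libraries), and sham hearts came from the same 3 genotypes with 6 libraries each. IRS1KO mice carried the alphaMHC-Cre transgene with floxed Irs1, IRS2KO mice carried alphaMHC-Cre with floxed Irs2, and the mice called WT carried floxed Irs2 without Cre. All were on a C57Bl/6/FVB background, had surgery when 6 weeks old and were sacrificed on day 3. The alphaMHC promoter is active in cardiomyocytes, so that the deletion is directed to these cells and the other cells of the apex keep the gene. There was no group with Cre alone and none with floxed Irs1 without Cre, so that an effect of Cre, or of the floxed Irs1 allele, cannot be told apart from the loss of the substrate. The labels do not say whether each library was a separate mouse, and p-values therefore measure the spread between these libraries.

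The recovered depth was 11707111 to 14609467 reads per library. Irs1 averaged 27.4 ± 27.4 normalized counts in IRS1KO TAC hearts against 181 ± 40.6 in WT TAC hearts, and 25.9 ± 15.1 in IRS1KO sham hearts against 233 ± 52.5 in WT sham hearts (SD). Irs2 averaged 121 ± 41.2 in IRS2KO TAC hearts against 239 ± 68.6 in WT TAC hearts, and 123 ± 14.4 in IRS2KO sham hearts against 217 ± 174 in WT sham hearts, with ranges that overlapped those of WT after either surgery. The tissue carried its defining markers: the summed count of 10 cardiomyocyte markers such as Myh6 and Tnnt2 was 902751 to 1032662 per library in WT sham hearts. The 5 atrial markers summed to 279 to 614.5 per library there. Of these, Myl7 averaged 20.1 with a highest value of 106.3, and Sln averaged 5.41 with a highest value of 32.5. The authors' scaling held the median log2 change of all genes near 0 (-0.01 in each genotype). Setting every library to the same total in its place shifted that median to 0.24 in WT, 0.30 in IRS1KO and 0.33 in IRS2KO, so that the sign of a small change depends on the scaling. The share of called genes that were higher was then 79.7% in WT, 76.8% in IRS1KO and 79.7% in IRS2KO, beside 51.6%, 50.6% and 50.2% under the authors' scaling.

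Promoter sequence (the 250 bases before the start of the gene, from RefSeq, GRCm38.p6) was at hand for 7 of the 10 genes. It is shown for Srf, whose own promoter holds the motif that SRF binds, and for the members whose level moved the same way after TAC in all 3 genotypes and that have an entry: Tbx20, Mef2a and Mef2d. Capitals mark the motifs found among 5 searched on both strands: the CArG box (CC, 6 bases that are A or T, and GG), the MEF2 box, GATAAG for GATA factors, TNAAGTG for NKX2-5 and AGGTGT for T-box factors. No match overlapped another.
Srf, chr17:46556163-46556412, minus strand: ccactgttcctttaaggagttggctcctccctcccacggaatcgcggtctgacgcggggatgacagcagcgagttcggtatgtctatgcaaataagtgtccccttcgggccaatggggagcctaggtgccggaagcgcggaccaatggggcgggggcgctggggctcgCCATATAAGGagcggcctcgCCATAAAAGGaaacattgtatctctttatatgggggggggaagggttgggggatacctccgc
Tbx20, chr9:24774304-24774553, minus strand: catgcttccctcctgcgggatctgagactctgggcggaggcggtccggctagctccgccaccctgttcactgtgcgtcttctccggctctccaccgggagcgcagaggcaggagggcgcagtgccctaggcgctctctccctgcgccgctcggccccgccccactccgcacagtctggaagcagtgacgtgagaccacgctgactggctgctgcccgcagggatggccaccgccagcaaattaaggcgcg
Mef2a, chr7:67372859-67373108, minus strand: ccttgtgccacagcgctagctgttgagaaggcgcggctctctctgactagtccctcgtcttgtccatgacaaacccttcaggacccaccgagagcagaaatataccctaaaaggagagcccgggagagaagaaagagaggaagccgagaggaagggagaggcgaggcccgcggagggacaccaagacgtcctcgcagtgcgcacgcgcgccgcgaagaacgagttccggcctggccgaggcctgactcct
Mef2d, chr3:88142122-88142371, plus strand: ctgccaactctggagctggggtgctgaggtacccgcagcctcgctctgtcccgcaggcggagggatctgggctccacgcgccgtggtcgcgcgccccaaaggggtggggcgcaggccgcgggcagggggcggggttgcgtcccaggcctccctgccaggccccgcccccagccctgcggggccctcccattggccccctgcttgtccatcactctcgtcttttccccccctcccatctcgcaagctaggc
The Srf promoter held 2 CArG boxes, CCATATAAGG at 82 to 73 bases and CCATAAAAGG at 62 to 53 bases before the start. A CArG box occurred in 482 of 32851 promoters of the same length (1.47%). The Tbx20, Mef2a and Mef2d windows held none of the 5 letter strings. Of all promoters, 2.92% held a MEF2 box, 6.55% GATAAG, 10.1% TNAAGTG and 11.8% AGGTGT. GC content was 59.6% for Srf, 68.8% for Tbx20, 61.6% for Mef2a and 73.2% for Mef2d, against a median of 52.4% over all promoters.

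The first question was which of the factors changed with pressure load, and whether they did so together. They did not move as a block: Tbx20 was higher and Tbx5 lower after TAC in all 3 genotypes under each scaling tried. Under the authors' scaling, but not with the same total per library, Mef2a and Mef2d were lower in all 3 and Nkx2-5 and Mef2c passed the threshold in none, except that Mef2c passed in WT with library weights (adjusted p = 0.0222). In WT hearts 1 member was higher and 3 were lower (limma on log2(value + 1), Benjamini-Hochberg adjusted p under 0.05 over all 13695 genes). The background was high: 28.3% of all tested genes were higher and 26.6% lower in WT (54.9% in either direction), and the groups did not overlap for 31.5% of them. In IRS1KO hearts 2 members were higher and 3 lower, where 32.4% of all genes were higher, 31.7% lower (64.1% in either direction) and 37.1% did not overlap. In IRS2KO hearts 3 members were higher and 4 lower, where 31.3% of all genes were higher, 31.1% lower (62.4% in either direction) and 29.3% did not overlap. The groups did not overlap for 4 members in WT, 3 in IRS1KO and 2 in IRS2KO. With 10 members, none of these shares is read as differing from its background. The median log2 change over the 10 members was -0.12 in WT, -0.06 in IRS1KO and 0.01 in IRS2KO, beside -0.01 over all genes in each. Over the 3 genotypes, 3236 genes (23.6% of those tested) were higher in each, 2848 (20.8%) were lower in each and 3091 (22.6%) were called in none, and the members split into 1, 3 and 2. The remaining 4 members, Gata4, Gata6, Hand2 and Srf, were called in only 1 genotype. In bulk tissue such as this, fewer cells of a type and less RNA per cell cannot be told apart.

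**Figure D1:**
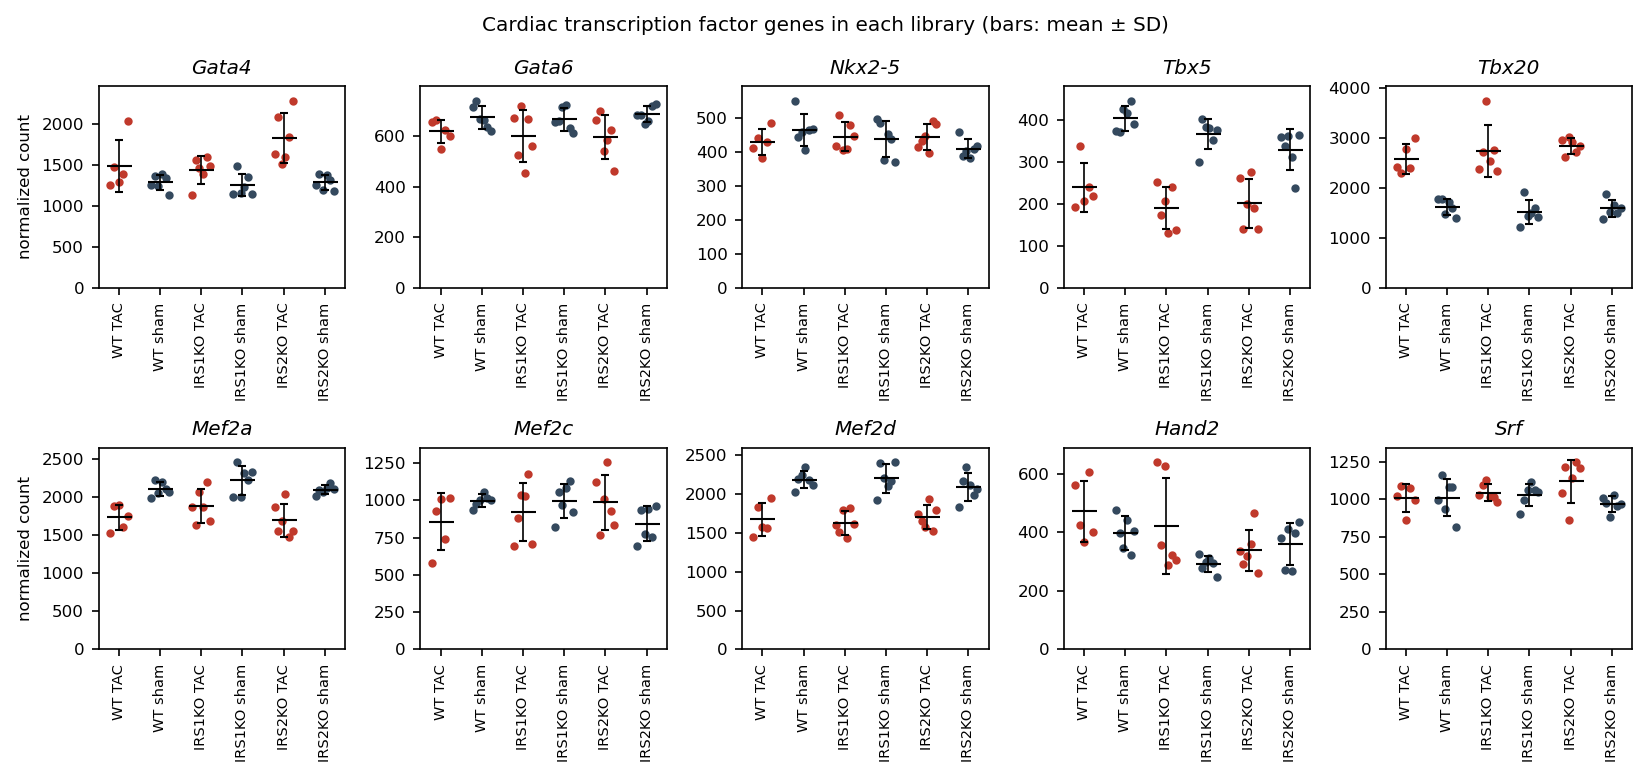
Normalized count of each of the 10 genes (vertical axis, from 0) in every library, by group; points are libraries and bars the mean ± SD, red for TAC and dark blue for sham. All TAC points of Tbx20 lie above all sham points of the same genotype, and the Tbx5 points lie below them except in IRS2KO hearts.

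Among the 10 genes the T-box factors changed most, and in opposite directions. The absolute log2 change of Tbx20 exceeded that of 76.1%, 77.9% and 78.6% of tested genes in WT, IRS1KO and IRS2KO. For Tbx5 the shares were 80.6%, 82.1% and 74.5%, so that many other genes changed more. TBX20 is needed to maintain the adult myocardium and TBX5, which in the embryo partners GATA4 and NKX2-5, governs atrial, septal and conduction system genes. Tbx20 (ENSMUSG00000031965, chr9:24718138-24774303, minus strand) had 2415, 2304, 2779.5, 2388 and 3000.1 normalized counts in the 5 WT TAC libraries, against a lowest value of 1398, a median of 1657 and a highest of 1779 in the 6 WT sham libraries. Every WT TAC library exceeded every WT sham library. The mean was 1.59-fold higher, a log2 difference of 0.67 ± 0.11 (SE, adjusted p = 5.96e-06). In IRS1KO hearts Tbx20 ran from 2330.4 over a median of 2624 to 3733 after TAC, against 1207, 1466 and 1916 in sham (1.81-fold higher, log2 difference 0.85 ± 0.10, adjusted p = 2.23e-08). In IRS2KO hearts it ran from 2606 over 2867 to 3012 after TAC, against 1373, 1564 and 1866 in sham (1.79-fold higher, log2 difference 0.84 ± 0.10, adjusted p = 4.14e-08). The IRS2KO TAC libraries were the most alike, with an SD of 156 on a mean of 2836, and in both knockouts the groups again did not overlap.

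Tbx5 (ENSMUSG00000018263, chr5:119832668-119885219, plus strand) had 193, 339, 207, 241 and 220.4 normalized counts in the WT TAC libraries, against 373, 405 and 447 as the lowest, median and highest WT sham values. TAC replicate 2 stood closest to sham, yet below all of it. The mean was 1.69-fold lower, a log2 difference of -0.78 ± 0.17 (SE, adjusted p = 0.000347). In IRS1KO hearts Tbx5 ran from 132 over 191 to 253 after TAC, against 302, 379 and 404 in sham (1.92-fold lower, log2 difference -0.98 ± 0.16, adjusted p = 5.22e-06). In IRS2KO hearts it ran from 139.9 over 196 to 278 after TAC, against 239, 349.9 and 365 in sham (1.63-fold lower, log2 difference -0.74 ± 0.16, adjusted p = 0.000225). There the ranges overlapped, because sham replicate 5 was at 239 and TAC replicates 4 and 1 were at 278 and 261.5. Both T-box calls held with their direction under the same total per library, where the log2 difference in WT, IRS1KO and IRS2KO was 0.92, 1.16 and 1.18 for Tbx20 and -0.52, -0.67 and -0.40 for Tbx5.

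The ratio of Tbx20 to Tbx5, each per kilobase of exon, does not depend on how a library is scaled. It was 4.38 ± 1.13 in WT TAC hearts against 1.57 ± 0.23 in WT sham hearts, 5.88 ± 1.51 in IRS1KO TAC hearts against 1.60 ± 0.17 in IRS1KO sham hearts, and 5.82 ± 1.5 in IRS2KO TAC hearts against 1.92 ± 0.37 in IRS2KO sham hearts (SD). The lowest ratio in any TAC library was 2.65 and the highest in any sham library was 2.45. Tbx20 thus stood above Tbx5 per length in every library, and the ratio was more spread between TAC libraries than between sham libraries in each genotype.

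The TAC libraries differed in how far they had moved from sham as a whole, and Tbx5 differed with them. The distance was taken as the root mean square of the log2 differences over all tested genes between a TAC library and the sham mean of its genotype, a measure chosen after the data had been seen. It ran from 0.54 in WT TAC replicate 2 and 0.55 in IRS2KO TAC replicate 4 to 1.21 in IRS2KO TAC replicate 6. The genes behind this distance include the 10 members. Of all tested genes, 54.9% in WT, 64.1% in IRS1KO and 62.4% in IRS2KO were called after TAC. How many of all genes follow the distance as closely was not computed, so that no relation below is read as particular to a member. Over the 17 TAC libraries Tbx5 was lower the farther a library was from sham, with Pearson's r of -0.89 and Spearman's rho of -0.90 (permutation p = 2e-05 for each, the smallest value that 100000 resamples can give, and 0.0002 after adjustment over the 10 relations computed). Without the 2 libraries farthest from the median distance r was -0.84, and with every value centred on its genotype it was -0.90. Within IRS1KO r was -0.87 (exact permutation p = 0.0472, adjusted 0.236, n = 6) and rho -0.77, and within IRS2KO r was -0.94 (exact permutation p = 0.0111, adjusted 0.0556, n = 6) and rho -0.89, while WT had too few TAC libraries. For Tbx20 no relation was detected, with r of -0.09 and rho of -0.14 (permutation p = 0.707 and 0.585, n = 17), and the 3 libraries nearest to sham had values of 2304, 2910.3 and 2960.2 that lay above all sham values of their genotype. Mef2a (r -0.65, adjusted permutation p = 0.0271) and Mef2d (r -0.63, adjusted permutation p = 0.0281) were also lower with distance by Pearson's r over the 17 libraries. Their rho of -0.57 and -0.54 did not pass (adjusted permutation p = 0.0674 for each), and without the 2 farthest libraries r was -0.63 for Mef2a and -0.47 for Mef2d. For the other 6 members r lay between -0.49 (Gata6) and 0.22 (Nkx2-5) and none passed the adjustment. The summed cell type markers moved with the same distance: r was -0.97 for 10 cardiomyocyte markers, 0.84 for 10 macrophage and leukocyte markers, 0.82 for 10 fibroblast markers and -0.89 for 10 endothelial markers (rho -0.97, 0.80, 0.78 and -0.90, adjusted permutation p at most 0.00055 over 5 measures, n = 17). Without the 2 farthest libraries these were -0.95, 0.73, 0.77 and -0.80. For the recovered reads per library r was -0.07 and rho -0.01 (permutation p = 0.776 and 0.982). The part of the cell type markers in the Tbx5 relation was not tested, and without the 3 libraries nearest to sham, left out after the data had been seen, the log2 difference of Tbx5 was -0.91 in WT and -0.97 in IRS2KO.

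**Figure D2:**
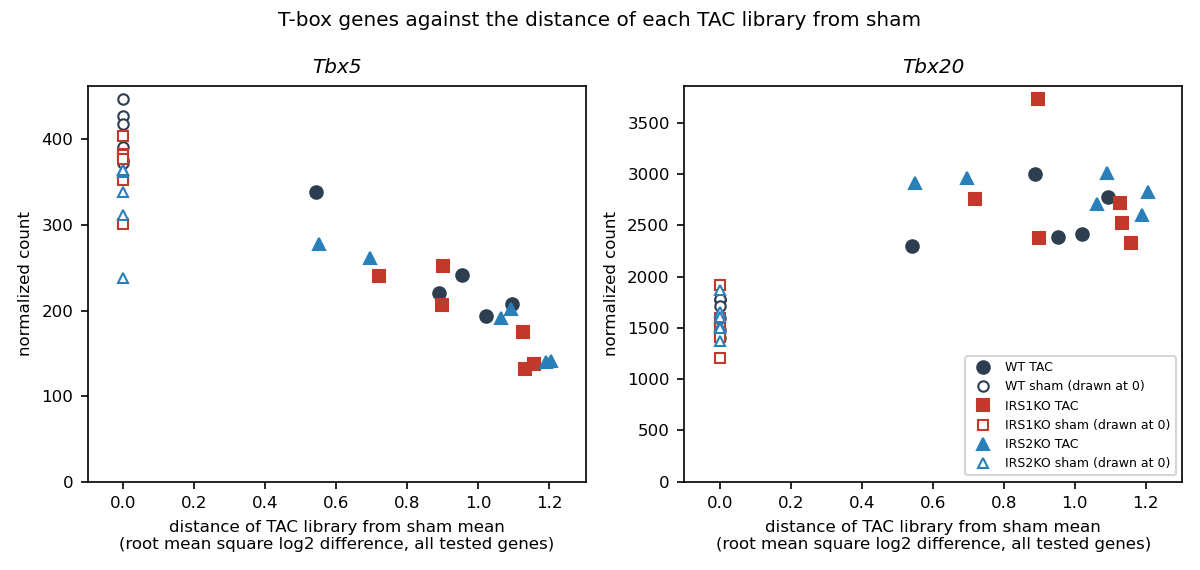
Normalized count of Tbx5 and Tbx20 (vertical axes, from 0) against the distance of each TAC library from the sham mean of its genotype (horizontal axis, root mean square log2 difference over all tested genes); filled symbols are TAC libraries and open symbols sham libraries, drawn at 0. Tbx5 is lower the farther a library lies from sham (r -0.89 over 17 TAC libraries), whereas Tbx20 is high in all of them (r -0.09).

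Under the authors' scaling the cell type markers also moved with TAC. As a background to their counts, 28.3% of all tested genes were higher and 26.6% lower in WT. The shares were 32.4% and 31.7% in IRS1KO, and 31.3% and 31.1% in IRS2KO. Equal library totals shifted the median log2 change of all genes to 0.24 in WT, 0.30 in IRS1KO and 0.33 in IRS2KO. The marker values here are given under the authors' scaling alone, and changes of the size of that shift cannot be assigned a direction. Of 10 cardiomyocyte markers 9 were lower in WT, 7 in IRS1KO and 8 in IRS2KO hearts, and their summed count was 494195 to 868355 in WT TAC libraries against 902751 to 1032662 in WT sham libraries. All 10 macrophage and leukocyte markers were higher in each genotype, with summed counts of 6778 to 19557 in WT TAC libraries against 2687 to 3237 in WT sham libraries. Fibroblast markers were mixed, with 6 of 10 higher and 1 lower in WT, 5 and 2 in IRS1KO, and 5 and 3 in IRS2KO, and summed counts of 40392 to 65936 in WT TAC against 26822 to 30804 in WT sham. Endothelial markers were lower in 7 of 10 cases in WT, 10 in IRS1KO and 9 in IRS2KO, with summed counts of 14889 to 22920 in WT TAC against 22769 to 25428 in WT sham. Smooth muscle and pericyte markers were higher in 2 of 8 cases and lower in 5 in WT, with summed counts of 10253 to 16830 in WT TAC against 18208 to 18999 in WT sham. No marker of these 5 lists was at 0 in every library of a group. Of the 3 tested epicardial and mesothelial markers none was called in any genotype (all 6 in the table summed to 43.4 to 309.6 per library), and of 3 tested atrial markers 1 was lower in WT and 2 in each knockout. Their part in the changes of the 10 factors was not tested.

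Of the MEF2 genes, Mef2a and Mef2d were lower after TAC under the authors' scaling but not with equal library totals, and Mef2c did not pass in the fit with all libraries weighted alike. MEF2 proteins are MADS-box factors of striated muscle; MEF2A and MEF2D are the forms best known from the adult heart, and MEF2C is required in the developing one. Mef2d (ENSMUSG00000001419, chr3:88142372-88172086, plus strand) had 1439.5, 1835, 1579, 1567 and 1947 normalized counts in the WT TAC libraries, against 2026, 2183 and 2348 as the lowest, median and highest WT sham values. No WT TAC library reached the sham range, and the log2 difference was -0.39 ± 0.08 (1.30-fold lower, adjusted p = 0.000176). In IRS1KO hearts Mef2d ran from 1432 over 1607 to 1818 after TAC, against 1921, 2188 and 2405 in sham (log2 difference -0.43 ± 0.08, adjusted p = 1.25e-05). In IRS2KO hearts it ran from 1529 over 1698 to 1930.0 after TAC, against 1828, 2093 and 2351 in sham (log2 difference -0.29 ± 0.08, adjusted p = 0.00137). The groups did not overlap in IRS1KO and overlapped slightly in IRS2KO.

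Mef2a (ENSMUSG00000030557, chr7:67231163-67372858, minus strand) had 1529, 1880.4, 1898, 1599 and 1755 normalized counts in the WT TAC libraries, against 1988, 2085 and 2223 in WT sham. Those groups did not overlap, and the mean was 1.21-fold lower (log2 difference -0.28 ± 0.08, adjusted p = 0.004). In IRS1KO hearts the values ran from 1627 over 1865 to 2195 after TAC, against 1992, 2268 and 2452 in sham (log2 difference -0.24 ± 0.08, adjusted p = 0.00739). In IRS2KO hearts they ran from 1468 over 1618 to 2034 after TAC, against 2015, 2096 and 2184 in sham (log2 difference -0.32 ± 0.08, adjusted p = 0.000697). Both falls were of the size of the shift between scalings: with the same total per library Mef2a was -0.03 in WT, 0.07 in IRS1KO and 0.02 in IRS2KO, Mef2d was -0.13, -0.13 and 0.04, and none of the 6 values was called. Lysmd4, a gene on the strand opposite Mef2a whose exons overlap it, had a mean of 196 against 1959.7 for Mef2a and was also lower in each genotype (log2 difference -0.50, -0.53 and -0.31).

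Mef2c (ENSMUSG00000005583, chr13:83504034-83667080, plus strand) had 580.1, 926, 1012, 739 and 1018 normalized counts in the WT TAC libraries, against 932, 1001 and 1056 in WT sham. The TAC values were far more spread, with an SD of 191 against 42.2 in sham, and the log2 difference of -0.25 ± 0.14 did not pass (adjusted p = 0.127), though with library weights it was -0.33 and passed (adjusted p = 0.0222). In IRS1KO hearts it averaged 921 ± 194 after TAC and 997 ± 115 in sham (log2 difference -0.13 ± 0.13, adjusted p = 0.387). In IRS2KO hearts it averaged 986 ± 182 after TAC and 843 ± 116 in sham (log2 difference 0.22 ± 0.13, adjusted p = 0.158). The IRS2KO difference exceeded that of WT by 0.47 (95% interval 0.07 to 0.86), which did not pass the adjustment over all genes (adjusted p = 0.884).

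GATA4 is a zinc finger factor that is activated by pressure load and drives the natriuretic peptide genes. The RNA of its gene was higher after TAC in IRS2KO hearts, while the calls in WT and IRS1KO depended on the setting. Gata4 (ENSMUSG00000021944, chr14:63198922-63271692, minus strand) ran from 1518 over a median of 1741 to 2284 normalized counts in IRS2KO TAC libraries, against 1186, 1286 and 1388 in IRS2KO sham libraries. The groups did not overlap, and the mean was 1.42-fold higher (log2 difference 0.49 ± 0.10, adjusted p = 0.000135). In WT hearts it had 1262, 1474, 1289.7, 1387 and 2040.4 after TAC, against 1139, 1299 and 1385 in sham, and replicate 6 alone stood well above the sham range. The WT log2 difference was 0.19 ± 0.11 (adjusted p = 0.139) and it was 0.07 without that library. In IRS1KO hearts Gata4 ran from 1129 over 1477 to 1604 after TAC, against 1148, 1200.0 and 1483 in sham (log2 difference 0.19 ± 0.10, adjusted p = 0.101), and it passed with library weights (adjusted p = 0.0462) and without IRS1KO TAC replicate 1 (0.0273) or sham replicate 2 (0.0477). The IRS2KO response exceeded that of WT by 0.30 (95% interval -0.00 to 0.61, adjusted p = 0.951), so that a difference between genotypes was not shown. With the same total per library Gata4 was called higher in all 3 genotypes, by 0.45, 0.50 and 0.83.

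Gata6, the other cardiac GATA factor, has overlapping roles with Gata4 in cardiomyocytes. Gata6 (ENSMUSG00000005836, chr18:11052064-11085635, plus strand) averaged 618 ± 45.3 normalized counts in WT TAC against 674 ± 45.9 in WT sham, 599.6 ± 102 in IRS1KO TAC against 666 ± 45.3 in IRS1KO sham, and 596 ± 85.6 in IRS2KO TAC against 686 ± 31.9 in IRS2KO sham. With all libraries weighted alike only the IRS2KO difference passed (-0.22 ± 0.09, adjusted p = 0.0364), against -0.12 in WT (adjusted p = 0.265) and -0.17 in IRS1KO (adjusted p = 0.104), and with the same total per library all 3 were positive. The IRS1KO difference was -0.28 with library weights (adjusted p = 0.00237) and also passed without IRS1KO TAC replicate 3 (0.0308). The IRS2KO call was also lost with edgeR on the recovered reads (adjusted p = 0.0522), with no filter on low genes (0.0649), with the IRS2KO groups alone (0.0563), and without TAC replicate 3 (0.0819) or 6 (0.148) or sham replicate 5 (0.066) or 6 (0.0711). 1010001N08Rik, a transcript that overlaps it on the opposite strand at a mean of 81 against 640.5, was lower in all 3 genotypes (log2 difference -0.59, -0.58 and -0.66).

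Nkx2-5 (ENSMUSG00000015579, chr17:26838664-26845009, minus strand), the homeobox gene that marks cardiac muscle from the earliest stages, was called in no genotype. It averaged 430.3 ± 38.5 normalized counts in WT TAC against 466 ± 47.3 in WT sham, 445 ± 42.2 in IRS1KO TAC against 437 ± 53.1 in IRS1KO sham, and 445 ± 37.9 in IRS2KO TAC against 410.3 ± 27.7 in IRS2KO sham. The 95% intervals of the log2 difference were -0.28 to 0.06 in WT, -0.13 to 0.19 in IRS1KO and -0.05 to 0.28 in IRS2KO. Set to equal library totals, the differences were 0.14, 0.34 and 0.45, of which those of IRS1KO and IRS2KO were called.

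Hand2 (ENSMUSG00000038193, chr8:57320983-57324633, plus strand) had the largest coefficient of variation that any member reached within a group, 38.7% in IRS1KO TAC libraries. It ran from 289.6 over a median of 340.0 to 639 normalized counts in IRS1KO TAC libraries, against 247, 297 and 325 in IRS1KO sham libraries. IRS1KO TAC replicates 1 and 3, at 639 and 627, stood far above the other 4, which lay between 289.6 and 356. The log2 difference of 0.45 ± 0.18 passed (adjusted p = 0.024) and was lost without IRS1KO TAC replicate 1 (adjusted p = 0.0988), TAC replicate 3 (0.0957) or sham replicate 6 (0.0554). In WT hearts Hand2 had 561, 424, 366, 606 and 403 after TAC, against 321, 401 and 477 in sham (log2 difference 0.23 ± 0.18, adjusted p = 0.298). In IRS2KO hearts it ran from 261 over 328 to 465 after TAC, against 269, 389 and 435 in sham (log2 difference -0.09 ± 0.18, adjusted p = 0.689), a difference that turned to 0.25 with the same total per library. That scaling gave 0.49 in WT (adjusted p = 0.0183) and 0.76 in IRS1KO (adjusted p = 0.000173), both called. Hand2os1, a long non-coding RNA read from the opposite strand with exons that overlap Hand2, had a mean of 532 normalized counts against 378 for Hand2. Its log2 difference was -0.31 in WT (adjusted p = 0.113), -0.58 in IRS1KO (adjusted p = 0.00195) and -0.78 in IRS2KO (adjusted p = 9.26e-05). The library kit keeps the strand, but the sources used here do not give the strand setting of the counting, so that reads of these 2 genes may have been shared.

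Under the authors' scaling Srf differed least of the 10 genes in WT and IRS1KO hearts, while the genes it is known to control were mostly higher. Srf (ENSMUSG00000015605, chr17:46548329-46556175, minus strand) had 1023, 1086, 859.8, 1077 and 997 normalized counts in the WT TAC libraries, against 812, 1036 and 1163 as the lowest, median and highest WT sham values. The groups covered the same range, and the log2 difference was 0.00 ± 0.08 (95% interval -0.17 to 0.17, adjusted p = 0.994), smaller than that of all but 0.131% of the tested genes. In IRS1KO hearts Srf averaged 1045 ± 55.6 after TAC and 1030.4 ± 74.1 in sham (log2 difference 0.02, 95% interval -0.14 to 0.19). In IRS2KO hearts it ran from 864 over 1176 to 1245 after TAC, against 879.6, 972 and 1025 in sham (log2 difference 0.20 ± 0.08, adjusted p = 0.0312). That call was lost with no filter on low genes (adjusted p = 0.0584), with the IRS2KO groups alone (0.0673), with library weights (0.056), and without TAC replicate 2 (0.0761), 5 (0.0845) or 6 (0.0754) or sham replicate 3 (0.0768). After setting the same total per library Srf was called higher in all 3 genotypes, by 0.26, 0.33 and 0.54. Mef2a, at -0.03 in WT and 0.07 in IRS1KO, then differed less than Srf.

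**Figure D3:**
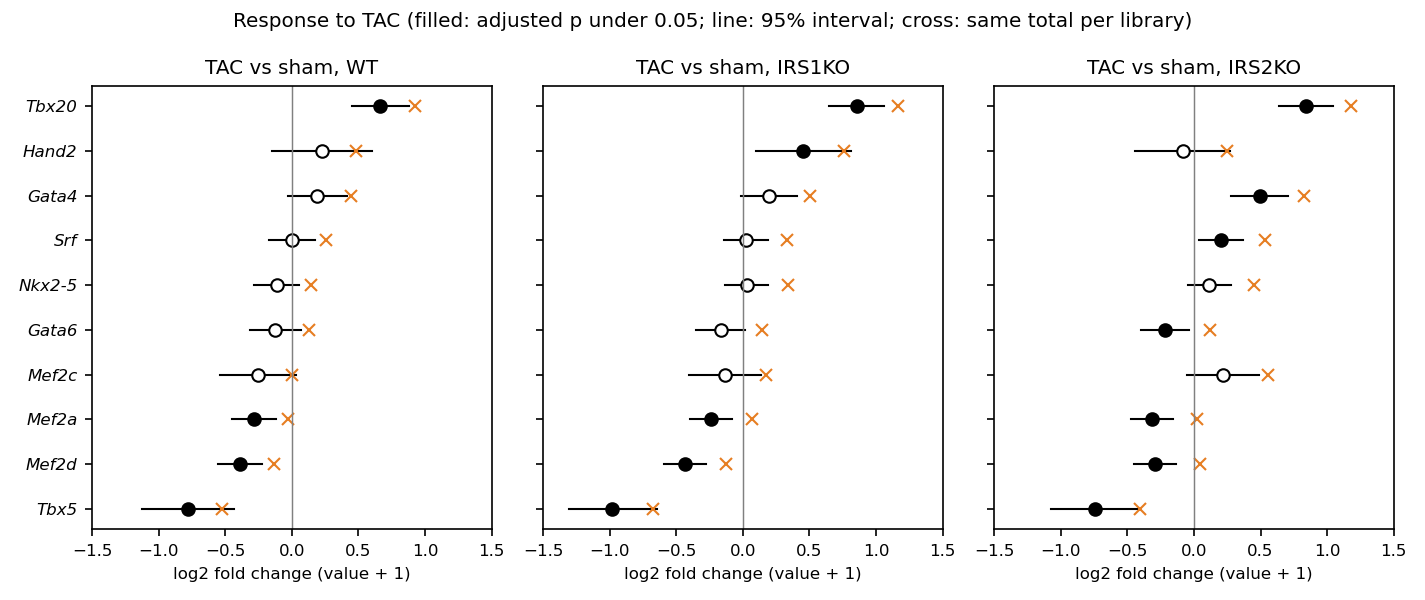
Log2 fold change after TAC of each gene (horizontal axis, log2(value + 1) scale) in WT, IRS1KO and IRS2KO hearts, with the 95% interval as a line; filled circles passed an adjusted p of 0.05, and crosses are the values with the same total in every library. Tbx20 and Tbx5 keep their side of 0 under both scalings in all 3 genotypes, whereas Gata6 crosses it in all 3 and Nkx2-5, Mef2a, Mef2c, Mef2d and Hand2 in 1 or 2.

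Between genotypes, 0 of the 10 members passed in any of 6 direct comparisons or 3 comparisons of the TAC response. In sham hearts, 4.65% of all genes were called between IRS1KO and WT, 0% between IRS2KO and WT and 8.3% between IRS1KO and IRS2KO. After TAC, the shares were 4.7%, 0% and 2.36%, and for the response differences they were 0.11% for IRS1KO minus WT, 0% for IRS2KO minus WT and 0.409% for IRS1KO minus IRS2KO. At an unadjusted p under 0.05 limma counted 1 member in sham between IRS1KO and WT (Hand2), 1 between IRS2KO and WT (Nkx2-5) and 0 between IRS1KO and IRS2KO. After TAC it counted 1 between IRS1KO and WT (Tbx5), 2 between IRS2KO and WT (Gata4 and Hand2) and 1 between IRS1KO and IRS2KO (Gata4). For the response differences it counted 0, 1 (Mef2c, IRS2KO minus WT) and 2 (Gata4 and Hand2, IRS1KO minus IRS2KO). Among the 13695 tested genes, 2203 had an unadjusted p under 0.05 in sham between IRS1KO and WT and 2926 between IRS1KO and IRS2KO. The numbers after TAC were 2827 and 1686, and those for the response differences were 1216 (IRS1KO minus WT) and 1566 (IRS1KO minus IRS2KO). With 10 members, no member count at this threshold is read as differing from its background. EdgeR called 0 members in all 9 comparisons and DESeq2 called 1, Gata4 between IRS1KO and IRS2KO after TAC. Where no gene at all was called, 534 genes (IRS2KO against WT in sham), 931 genes (IRS2KO against WT after TAC) and 713 genes (their response difference) had an unadjusted p under 0.05, while edgeR called 0 in each and DESeq2 called 2, 0 and 0. Other settings did call genes: in sham 23 higher and 8 lower when only those groups were fitted and 18 and 5 with library weights, and, without the 3 TAC libraries nearest to sham, 118 higher and 287 lower after TAC and 1 and 3 for the response difference. With no filter on low genes, 1 was higher in sham and 2 after TAC.

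The closest to a genotype difference was Gata4 after TAC, at 1439 ± 169.7 normalized counts in IRS1KO against 1829 ± 304 in IRS2KO (SD, n = 6 each). The log2 difference was -0.34 (95% interval -0.55 to -0.13, adjusted p = 0.081), and the ranges overlapped. Gata4 passed when WT TAC replicate 6 (adjusted p = 0.0344) or IRS2KO TAC replicate 3 (0.0362) was left out, and with DESeq2 (0.0425). Hand2 in sham hearts averaged 292 ± 27.4 in IRS1KO against 398 ± 57.7 in WT, a log2 difference of -0.44 (95% interval -0.79 to -0.08, adjusted p = 0.179). It passed when those 2 groups alone were fitted (adjusted p = 0.0036) or with library weights (0.0274). Over all 10 members the 95% intervals of the differences between genotypes reached -0.79 and 0.52 in sham hearts and -0.85 and 0.62 after TAC on the log2 scale. The ranges of Tbx5 did not overlap between IRS2KO sham and WT sham hearts (log2 difference -0.31, 95% interval -0.64 to 0.02, adjusted p = 1). The share of all genes without overlap there was not computed, so that this is not read as particular to Tbx5. The TAC response of Tbx5 differed from that of WT by -0.20 in IRS1KO (95% interval -0.68 to 0.28) and by 0.04 in IRS2KO (-0.44 to 0.52), and that of Tbx20 by 0.19 (-0.11 to 0.49) and 0.18 (-0.12 to 0.47).

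The genes that these factors are known to control were taken as lists, chosen with earlier results of these data known. Over all tested genes 28.3% were higher and 26.6% lower in WT, 32.4% and 31.7% in IRS1KO, and 31.3% and 31.1% in IRS2KO. Of 16 tested SRF targets, 13 were higher and 0 lower in WT, 13 and 1 in IRS1KO, and 15 and 0 in IRS2KO, with a median log2 change of 1.43, 1.40 and 1.46 beside -0.01 over all genes. With equal library totals 15, 14 and 15 were higher and 0 lower. Egr2, an immediate early gene, averaged 105 ± 46.8 normalized counts in WT TAC against 4.92 ± 3.08 in WT sham (adjusted p = 2.53e-08). Cnn1, which encodes the smooth muscle protein calponin, averaged 317 ± 167 against 20.1 ± 5.59 (adjusted p = 2.3e-07), the matricellular gene Ccn2 3419.7 ± 871 against 700.5 ± 75.3 (adjusted p = 3.44e-07), and Fos 120.3 ± 43.9 against 26.3 ± 13.8 (adjusted p = 0.000134). In IRS1KO and IRS2KO hearts Cnn1 was 34.3-fold and 25.2-fold higher, and Egr2 25.8-fold and 15.8-fold higher. Several of these genes are also expressed by fibroblasts, smooth muscle and leukocytes, whose marker values are given above, and the part of those cells was not tested.

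Of 16 GATA4, NKX2-5 and T-box targets, 7 were higher and 5 lower in WT, 7 and 4 in IRS1KO, and 8 and 5 in IRS2KO, with a median of 0.12, 0.18 and 0.29. Beside 28.3%, 32.4% and 31.3% higher and 26.6%, 31.7% and 31.1% lower over all genes, nothing is read as particular to the list. Equal library totals gave 10 higher and 3 lower in WT, 10 and 4 in IRS1KO, and 11 and 4 in IRS2KO. The natriuretic peptide gene Nppa averaged 8452 ± 2927 normalized counts in WT TAC against 594 ± 129 in WT sham (14.2-fold higher), and Nppb 5849 ± 2274 against 789 ± 157 (7.42-fold higher). Id2, which encodes an inhibitor of helix-loop-helix factors, was 3.13-fold higher and the fetal myosin gene Myh7 2.71-fold higher in WT (adjusted p = 2.86e-06 and 0.0105). In the knockouts the sarcomere gene Tnni3 and, in IRS1KO, the calcium pump gene Atp2a2 were among the 4 with the largest changes: Tnni3 was 2.65-fold lower in IRS1KO and 2.14-fold lower in IRS2KO, and Atp2a2 2.33-fold lower in IRS1KO.

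Of 15 MEF2 targets, 3 were higher and 6 lower in WT, and 3 were higher and 7 lower in each knockout, with a median of -0.32, -0.51 and -0.36. The shares over all genes were 28.3%, 32.4% and 31.3% higher and 26.6%, 31.7% and 31.1% lower, and nothing is read as particular to the list. Equal library totals gave 4 higher and 5 lower in WT and 5 and 5 in each knockout. Hrc, a calcium-binding protein of the sarcoplasmic reticulum, was 2.95-fold lower in WT, 5.08-fold lower in IRS1KO and 3.54-fold lower in IRS2KO. The myoglobin gene Mb and the muscle creatine kinase gene Ckm were 1.96-fold and 1.92-fold lower in WT. Xirp2, which encodes an actin-binding protein of the intercalated disc, went against them and was 3.82-fold, 4.16-fold and 5.80-fold higher in WT, IRS1KO and IRS2KO. These targets are also cardiomyocyte genes, and most of the cardiomyocyte markers were lower in the same hearts under the authors' scaling. The part of the cardiomyocytes in the target values was not tested.

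**Figure D4:**
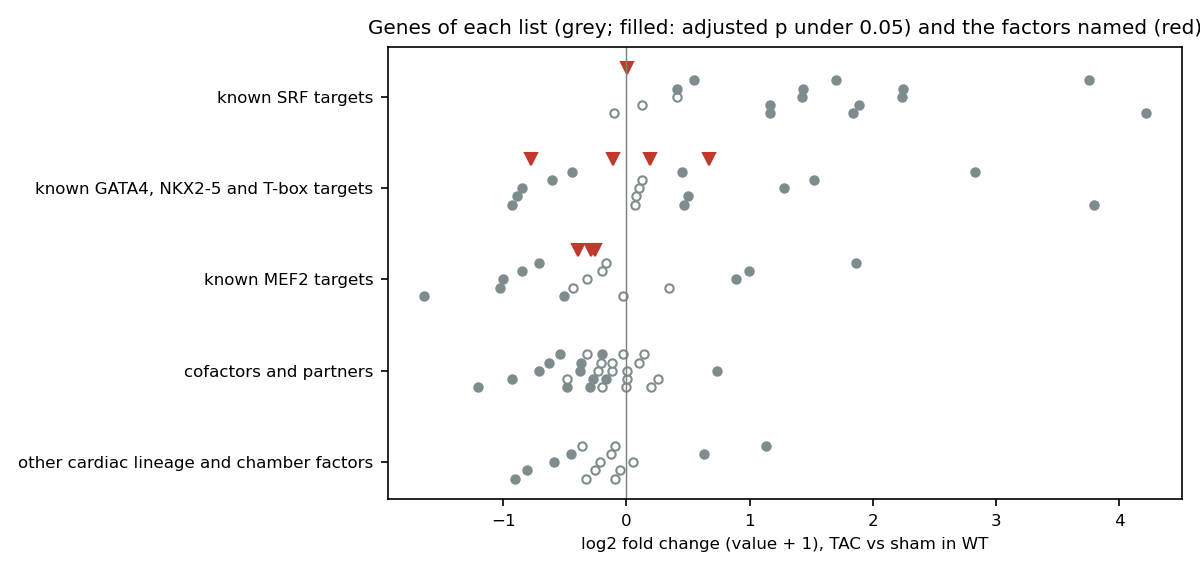
Log2 fold change after TAC in WT hearts (horizontal axis, log2(value + 1) scale) of the tested genes in 5 lists; grey circles are list genes, filled where the adjusted p was under 0.05, and red triangles are the factors named in the list. Under the authors' scaling the SRF targets lie mostly right of 0, at a median of 1.43, while the Srf triangle lies at 0.00.

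Cofactors and partners of the 10 factors had more lower than higher calls under the authors' scaling, and fewer in the knockouts with equal library totals. Of 28 genes, 1 was higher and 12 lower in WT, 4 and 12 in IRS1KO, and 1 and 10 in IRS2KO, with a median of -0.20, -0.13 and -0.06. Over all genes 28.3%, 32.4% and 31.3% were higher and 26.6%, 31.7% and 31.1% lower, and nothing is read as particular to the list. The 1 higher in IRS2KO became 3 with library weights or edgeR, 2 with DESeq2, 1 to 3 leaving out 1 library and 3 without the 3 TAC libraries nearest to sham. Equal library totals gave 5 higher and 6 lower in WT, 9 and 5 in IRS1KO, and 13 and 3 in IRS2KO. Hopx, a homeodomain-only protein that restrains SRF, averaged 830.0 ± 328 normalized counts in WT TAC against 1825 ± 215 in WT sham and was 2.20-fold, 3.14-fold and 2.78-fold lower in WT, IRS1KO and IRS2KO. The class II histone deacetylase genes Hdac4 and Hdac9, whose products repress MEF2, were 1.88-fold and 1.60-fold lower in WT. Mrtfa, an actin-regulated coactivator of SRF, was higher in each genotype, at 182 ± 20.4 in WT TAC against 110.0 ± 20.2 in WT sham (1.66-fold, 1.84-fold and 1.72-fold higher in WT, IRS1KO and IRS2KO).

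Of the other lineage and chamber factors, 15 of 21 in the table passed the filter on low values, so that the counts hold for these 15. In WT 2 were higher and 4 lower, in IRS1KO 3 and 11, and in IRS2KO 4 and 6, with a median of -0.21, -0.46 and -0.31. Among all tested genes 28.3%, 32.4% and 31.3% were higher and 26.6%, 31.7% and 31.1% lower, and nothing is read as particular to the list. Equal library totals gave 3 and 2 in WT, 3 and 5 in IRS1KO, and 5 and 0 in IRS2KO. Tbx18, a T-box gene of the epicardium and mural cells, was higher in each genotype, at 108 ± 21.6 in WT TAC against 68.3 ± 6.2 in WT sham. Tbx3, a T-box repressor of the conduction system, was 1.47-fold lower in WT and 1.96-fold lower in IRS1KO. Prox1, which helps keep sarcomere structure, was 1.85-fold lower and Hey1, a Notch target, 1.69-fold lower in WT.

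In sham hearts, some known targets differed between IRS1KO and WT while the 10 factors did not pass. Nppa was 6.81-fold higher in IRS1KO sham than in WT sham hearts (4045 ± 746 against 594 ± 129 normalized counts, adjusted p = 3.79e-11) and Nppb 2.18-fold higher (adjusted p = 0.0207). Among SRF targets, the smooth muscle actin gene Acta2 was 2.81-fold higher (adjusted p = 1.71e-08) and Ccn2 2.23-fold higher (adjusted p = 0.0124), and the other 14 were not called. Over the targets of GATA4, NKX2-5 and T-box factors 4 of 16 were higher and 0 lower, and over the MEF2 targets 0 of 15 were called, where 4.65% of all genes were called. The cardiomyocyte markers were called in 0 of 10 cases, with summed counts of 901701 to 988445 in IRS1KO sham against 902751 to 1032662 in WT sham, while 1 of 10 macrophage and leukocyte markers was higher and 1 of 10 fibroblast markers lower.

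Levels between genes were compared per kilobase of exon (all exons of the gene joined). In WT TAC hearts Gata4 stood highest at 382 ± 81.6 normalized counts per kilobase, followed by Srf (349 ± 31.4), Mef2d (279.6 ± 35.1), Nkx2-5 (250.3 ± 22.4), Tbx20 (215 ± 24.9), Hand2 (201 ± 44.7), Mef2a (118 ± 11.2), Gata6 (94.9 ± 6.96), Mef2c (54.4 ± 12.1) and Tbx5 (51.4 ± 12.4). In WT sham hearts Mef2d stood highest at 365 ± 18.4, followed by Srf (349.5 ± 43.2), Gata4 (330.1 ± 24), Nkx2-5 (271 ± 27.5), Hand2 (169 ± 24.5), Mef2a (143 ± 6.19), Tbx20 (135 ± 13.4), Gata6 (104 ± 7.05), Tbx5 (86.7 ± 6.41) and Mef2c (63.4 ± 2.68). The 4 highest were the same 4 genes after both surgeries, and neighbours among them overlapped in range. Tbx20 stood at place 5 after TAC and at place 7 in sham, Gata4 at 1 and 3, and Mef2d at 3 and 1. The means of Tbx5 and Mef2c exchanged the last places, but Mef2c stood above Tbx5 in only 2 of 5 WT TAC libraries. Within WT TAC the ranges of Hand2 and Mef2a, of Mef2a and Gata6 and of Gata6 and Mef2c did not overlap, and all other neighbours did. The order of the 10 means after TAC was the same in all 3 genotypes. It depends on the length used: with the longest transcript in place of all exons Mef2a stood at place 3 in WT TAC with 313 per kilobase. With that length Mef2a was at place 5 and Hand2 at place 9 in IRS2KO TAC, where Hand2 was at place 7 in WT TAC. Tbx5 was then at place 10 in both WT TAC and WT sham.

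**Figure D5:**
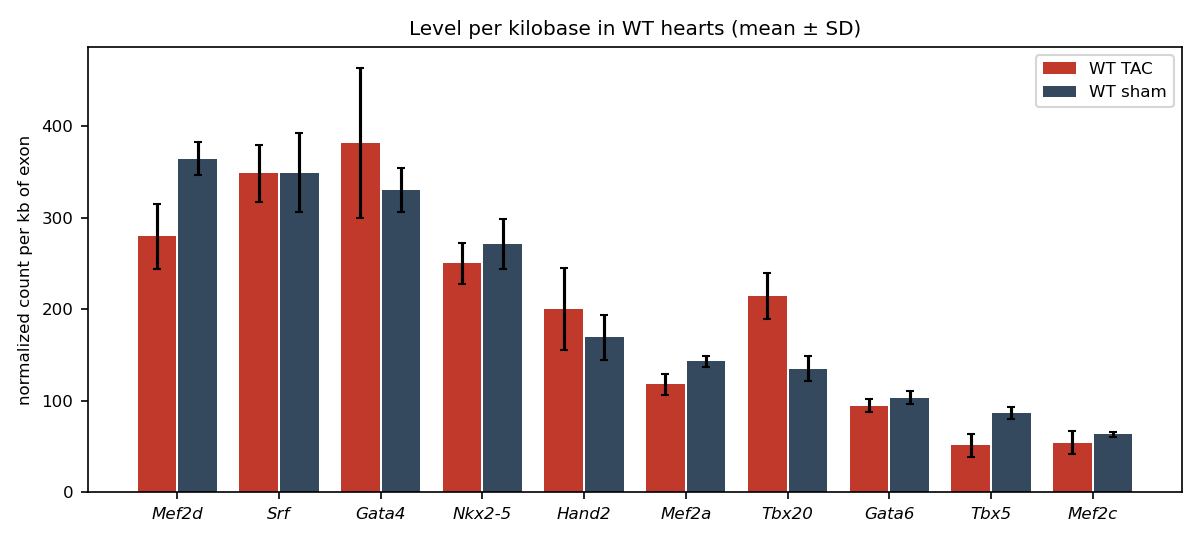
Level of each gene in WT hearts (vertical axis, normalized count per kilobase of exon, from 0), with TAC in red left of sham in dark blue; bars are means and error bars the SD over 5 TAC and 6 sham libraries. Tbx20 is higher in TAC (215 against 135 per kilobase), Tbx5 lower (51.4 against 86.7), and Srf level (349 against 349.5).

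For each factor, the genes with the most similar profile over all 35 libraries were sought among 9136 genes with a mean of at least 100, by the root mean square difference of log2 profiles centred on their means. Tbx5 was closest to Cbfa2t3 (0.17) and Abcb1a (0.18), where Tbx5 itself deviated from its own mean by 0.52. Tbx20 was closest to Mob1b (0.15) and Kif5b (0.18), with its own deviation at 0.43. Mef2a was closest to Gabpa (0.08) and Etv3 (0.09), and Mef2d to Ankrd11 (0.08) and Rnf123 (0.09), with own deviations of 0.19 and 0.22. For Hand2 the nearest, Noct (0.26) and Ednrb (0.27), stood beside its own deviation of 0.36, and the distances were likewise near the own deviation for Nkx2-5 (Map2k2 and Eif2d, 0.12 each, against 0.14) and Srf (Cap2, 0.11, and Slc6a8, 0.12, against 0.14). Gata4 was closest to Smarca4 (0.16) and Hs6st1 (0.17), Gata6 to Rnf14 (0.11) and Bap1 (0.11), and Mef2c to Nrp1 (0.15) and Fam53b (0.17).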

How the data were processed

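Gene expression was measured by RNA-seq of total RNA (mirVana, TruSeq Stranded mRNA kit) from the heart apex in 35 libraries. Per the submitters' processing notes, HISAT2 2.0.6, HTSeq 0.7.1 and DESeq2 were used with GRCm38; the sources used here do not give the strand setting of counting. The authors deposited 1 table of normalized counts, a signal with no fixed total per library. Dividing by each library's step gave whole reads for 100% of the values (tolerance 0.001). 0 columns were left unmapped. Of 27012 identifiers 26904 matched GENCODE vM21, which gave positions and exon lengths.

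Values were tested as log2(value + 1) with limma 3.58.1 (R 4.3.3; trend and robust options; 13695 genes with a mean of at least 10; a mean per group over 6 groups and 35 libraries; 12 comparisons; two-sided; Benjamini-Hochberg over all genes). EdgeR 4.0.16 and DESeq2 1.42.0 were run on the recovered reads as alternatives: edgeR called 3957 genes higher and 3510 lower after TAC in WT, 4299 and 4577 in IRS1KO, and 4387 and 4148 in IRS2KO, where limma called 7515, 8777 and 8546 in all. Correlations used scipy 1.17.1 in Python 3.11.15. Fits were checked on simulated data. A fold change on this scale understates the change of low genes.

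Other alternatives were a pseudocount of 0.5 or 5, no filter or one at a mean of 50, equal library totals, quantile normalization, fitting only the groups compared, library weights, a replicate block and leaving out each of 35 libraries. All 10 members are described; from each list, up to 4 called genes per comparison, those of largest change among genes averaging 50 or more in the higher group, could be named. The members, lists and tests were chosen with earlier results of these data known.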

Additional observations from a re-analysis of the deposited data

Results flagged for a closer look

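In 60 checks, 1 for each of the 10 genes in each of the 6 groups, 2 libraries stood apart from the rest of their group, where chance gives about 1 in 20. Gata4 in WT TAC replicate 6 was at 2040 normalized counts, with the next at 1474 and the lowest at 1262. Without this library the log2 difference of Gata4 between WT TAC and WT sham was 0.07 (limma, adjusted p = 0.573). Tbx20 in IRS1KO TAC replicate 3 was at 3733 normalized counts, with the next at 2755 and the lowest at 2330. Without it the log2 difference between IRS1KO TAC and IRS1KO sham was 0.76 (limma, adjusted p = 5.78e-08), so that the call held.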

How the results depend on the processing

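The counts of members called after TAC kept within 1.5 times under both other pseudocounts, both filters, quantile normalization, fitting only the groups compared, library weights, the replicate block, edgeR, DESeq2 and, added after seeing the data, the fit without the 3 TAC libraries nearest to sham. With the same total per library they became 4 higher and 1 lower in WT, 5 and 1 in IRS1KO, and 5 and 1 in IRS2KO, and 1 member (Mef2a) was higher in IRS1KO than WT after TAC. That scaling turned the direction of Gata6 (0.13 in WT, 0.14 in IRS1KO, 0.12 in IRS2KO), Nkx2-5 (0.14 in WT), Mef2c (0.0052 in WT, 0.17 in IRS1KO), Mef2a (0.067 in IRS1KO, 0.020 in IRS2KO), Mef2d (0.043 in IRS2KO) and Hand2 (0.25 in IRS2KO). Leaving out 1 library at a time gave 1 to 3 members higher in IRS1KO, with 1 without IRS1KO TAC replicate 3 or IRS1KO sham replicate 6. Between IRS1KO and WT in sham, 1 member (Hand2) was lower when only those groups were fitted or with library weights. Between IRS1KO and IRS2KO after TAC, leave-one-out fits gave 0 to 1 lower (Gata4), DESeq2 gave 1, and with the 3 TAC libraries closest to sham left out 1 was lower (Gata4) and 1 higher (Mef2a). The Srf difference was so near 0 that its sign turned: in WT it was -0.014 with library weights, -0.0035 with edgeR, -0.0047 with DESeq2, -0.027 without the nearest TAC libraries and -0.060 to 0.057 leaving out 1 library, and in IRS1KO it was -0.0055 with quantile normalization, -0.0087 with library weights, -0.0055 with edgeR and -0.016 to 0.045 leaving out 1 library. For Nkx2-5 in IRS1KO leaving out 1 library gave -0.017 to 0.067. The cause of these changes was not tested. Replicate numbers were not taken as pairing the libraries, since not every pair correlated above 0.1 and the labels name no shared animal, batch or day: over 17 pairs of TAC and sham libraries with the same number the deviations correlated by -0.08 to 0.209, 8 pairs were over 0.1, and 6 of 17 TAC libraries correlated best with their own number, so that a partial pairing cannot be told apart from none. With the replicate block 1 member (Gata4) was lower in IRS1KO than IRS2KO after TAC (adjusted p = 0.0362), and no other count of members changed. Over all genes the block gave 390 higher and 545 lower in IRS1KO than WT after TAC, beside 276 and 367 without it. The number of genes called rose with the block in each comparison that had any. With 5 or 6 libraries per group, and an RNA pool whose composition shifts with TAC, log2 differences of the size of the scaling shift cannot be assigned a direction.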
